A study of Mus musculus with 22 samples.

Results

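Axon guidance ligands and receptors were followed across 22 mouse mammary cell lines by exon array. The set was chosen by gene symbol with no cut on level, though earlier results of these data were known. It holds Eph receptors and ephrins, semaphorins of classes 3 to 7, plexins, Slits, Robos, the netrins Ntn1 and Ntn4, and the Unc5 receptors. Of the 14860 genes that the array table names with a single symbol, 57 met this rule. They comprised 12 Eph receptors, 7 ephrins, 18 semaphorins, 8 plexins, 2 Slits, 4 Robos, 2 netrins and 4 Unc5 receptors. Epha2 had 2 entries in the table and the one with the higher mean was used, while Efna3, Ephb2, Ephb6, Plxnb3, Sema3g, Sema4c and Slit3 were not analysed here.

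Each line was measured on 1 array, and the values are log2 array values as deposited. The 22 lines fall into 17 lineages when those of shared tumour or parental origin are joined. Tumours of genetically engineered mice (GEM) gave 12 lines, or 10 lineages. Lines 6DT1, cMyc and Myc83 came from MMTV-Myc mice and MVT1 and MVT2 from MMTV-Myc-VEGF bitransgenic mice, in which the mouse mammary tumour virus promoter directs the transgene chiefly to mammary epithelium. Lines 2508 and 2855 came from an MMTV-Wnt invasive carcinoma with the same tumour number, ZD2508, in both labels. M6 came from a C3(1)Tag mouse, which expresses the SV40 T antigen, and M6C from a lung metastasis of M6. DB7 came from a transplanted MMTV-PyVT Db tumour whose doubly mutated polyoma middle T is uncoupled from PI3K. Line 780 came from a BRCA-/-;p53+/+;Wap-cre tumour by its description, whereas the growth protocol writes p53+/- for that model, and the BRCA gene is not specified. Line p1522 grew out of a p53-/-;MMTV-cre tumour.

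Spontaneous tumours gave 8 lines, or 5 lineages. Lines 67NR, 4T07 and 4T1 share a BALB/cfC3H tumour. 67NR was transfected for geneticin resistance and is described as non-disseminating. 4T07 was transfected for resistance to thioguanine and ouabain and is described as reaching the lung without colonizing it. 4T1 was selected as spontaneously thioguanine resistant and is described as fully metastatic. D2A1 and D20R trace to a D2 hyperplastic alveolar nodule line, EMT6 to a BALB/c tumour that followed implantation of such a nodule, TSA to a BALB/c tumour, and F311 is a sarcomatoid clone of the BALB/c adenocarcinoma M3. The immortalized lines are EPH4, a hygromycin-selected subclone with an empty retroviral vector from a mid-pregnant Balb/c mouse, and NMUMG, an outgrowth of adult Namru mammary gland. A level in a bulk culture cannot tell fewer expressing cells from less RNA per cell.

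Axon guidance cues attract or repel growing axons, and the same ligands and receptors act on epithelia, vessels and migrating cells. Ephrins are membrane-bound ligands of the Eph receptor tyrosine kinases, and both sides of the contact can signal. Most semaphorins signal through plexins, the secreted class 3 members mostly with neuropilins as co-receptors, while Slits bind Robos and netrins bind Dcc, Neo1 and Unc5 receptors. In the mammary gland, Slit2 and Robo1 are known for a part in duct branching and in the adhesion of the basal to the luminal layer, and Ntn1 with Neo1 for the shape of the end bud.

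The lines differed in epithelial character. Of 10 measured mammary epithelial markers, 1 to 8 lay above the median of their array in a GEM line, 0 to 8 in a spontaneous line and 4 to 8 in an immortalized line. Of 12 mesenchymal markers, 8 to 12 did so in a GEM line, 8 to 11 in a spontaneous line and 7 to 8 in an immortalized line. Of 8 endothelial markers at most 1, Esam, exceeded the median in any line. Of the other lists, 3 of 9 immune, 1 of 4 adipocyte and 2 of 6 neuron and glia markers exceeded it in at least 1 line. The adipocyte marker Plin1 did so in every line, so a value above the median does not establish a cell type. Array medians lay between 6.78 and 7.17, while the SD of an array's values ran from 1.76 in 2855 to 2.12 in p1522. The arrays of 2855, 2508 and F311 had the smallest SD and a raised floor. The 14 guidance genes that never exceeded an array median averaged 6.20 in 2855, 5.93 in 2508 and 5.97 in F311, against 5.26 to 5.75 in the other lines. The part of this compression in the values of those lines was not tested.

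Of the 57 guidance genes, 12 exceeded the median of their array in all 22 lines, 31 in some lines and 14 in none. Over all genes, 37% lay above the median in every line and 33.6% in none. Above the median in every line were the receptors Epha2 and Ephb4 and the ligands Efna1, Efna5 and Efnb1. The others were the semaphorins Sema3f, Sema4b and Sema6c, the plexins Plxna1, Plxnb2 and Plxnd1, and the netrin receptor Unc5b. Sema6c passed narrowly, at 6.93 in EPH4 (array median 6.89) and 6.894 in p1522 (6.85). Its highest lines, 2855, F311 and 2508, were those with a raised floor. Those above the median in no line were Efnb3, Epha3, Epha5, Epha6, Ephb1, Plxna4, Plxnc1, Robo3, Robo4, Sema3d, Sema4g, Sema5b, Slit1 and Unc5d. By family, 2 of 12 Eph receptors, 3 of 7 ephrins and 3 of 18 semaphorins lay above the median in every line. So did 3 of 8 plexins and 1 of 4 Unc5 receptors, but none of the Slits, Robos or netrins. The heat map of all members shows the mixed class to hold most semaphorins, 12 of 18.

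**Figure D1:**
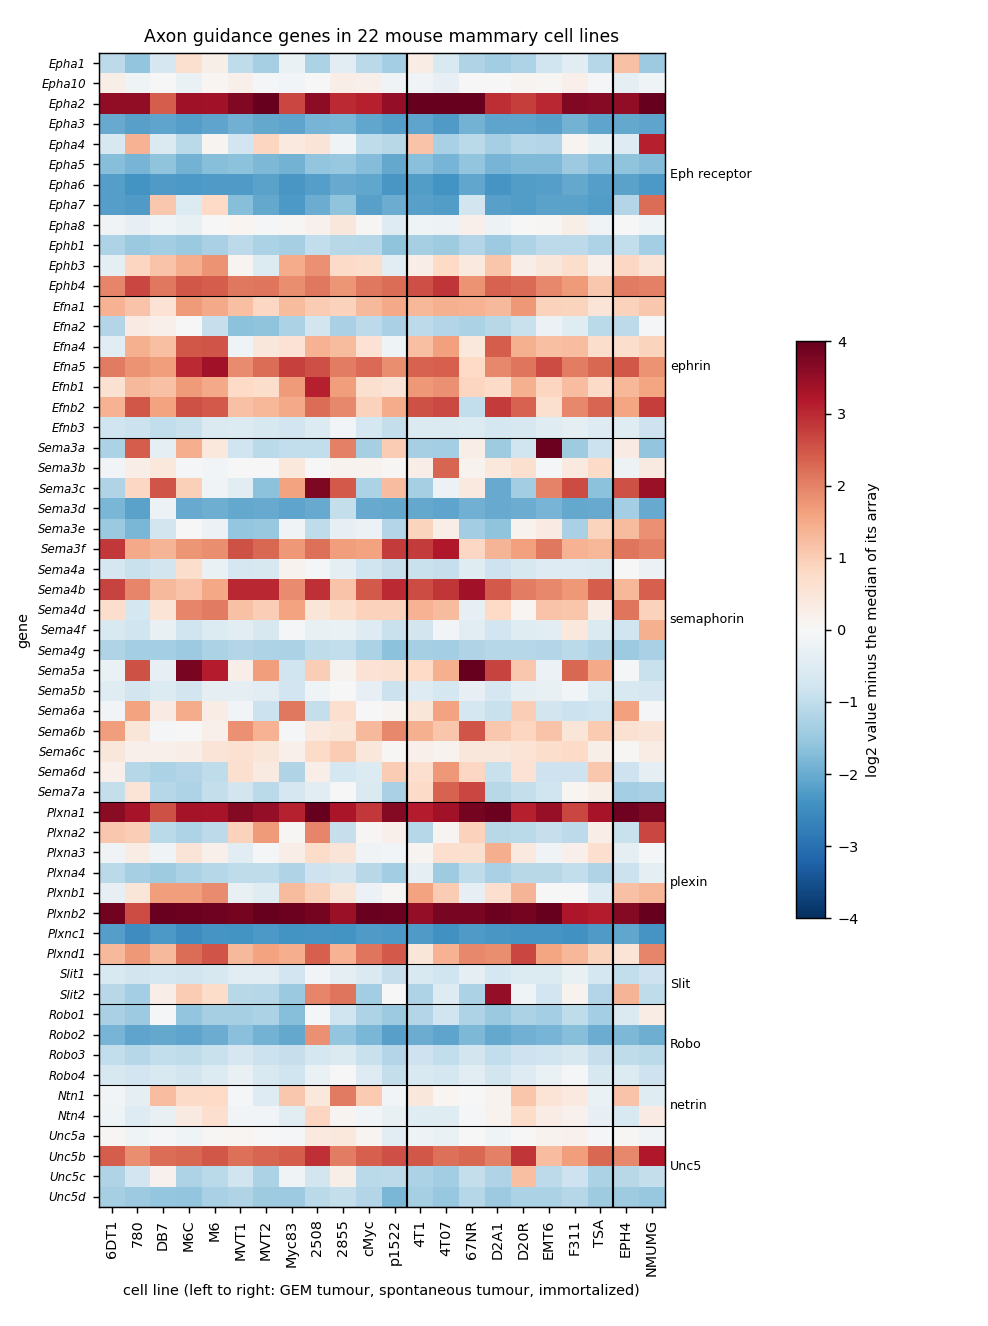
Log2 value of each of the 57 genes (rows, by family) minus the median of its array in each of 22 lines (columns, GEM left, spontaneous middle, immortalized right). Red is above and blue below the array median, and 12 genes are red in every column.

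Slit2, a secreted ligand of Robo receptors, differed widely among lines. Its log2 values were 5.39, 6.37 and 9.32 in GEM lines (lowest, median, highest, n = 12), 5.57, 6.25 and 10.31 in spontaneous lines (n = 8), and 8.25 in EPH4 and 5.86 in NMUMG. Slit2 exceeded the median of its array in 9 lines. The highest line was D2A1 at 10.31, followed by 2855 at 9.32, 2508 at 9.01, EPH4 at 8.25, M6C at 7.86 and M6 at 7.61. F311 at 7.23 and DB7 at 7.22 were neighbours that cannot be ordered with 1 array per line. High and low lines occurred in every origin, so the origins overlapped.

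The Robo receptors lay under the median of their array in nearly all lines. Robo1, expressed in basal cells of the mammary duct, had log2 values of 5.19, 5.57 and 6.98 in GEM lines (lowest, median, highest), 5.30, 5.63 and 6.07 in spontaneous lines, and 6.33 in EPH4 and 7.18 in NMUMG. It exceeded the median of its array in NMUMG alone. Robo2, a second Slit receptor, was 8.90 in 2508 and between 4.69 and 5.58 in the other 21 lines. Line 2508, with Slit2 at 9.01, was the only line above the array median in both. Robo4, an endothelial member of the family, exceeded the array median in no line. Its highest values, 7.16 in 2855, 7.02 in F311 and 6.78 in 2508, were in the arrays with a raised floor. Line 2508 also stood apart in Krt5, a basal keratin, at 12.19, against 6.54 or less in each of the other lines, whereas Krt14, another basal keratin, was 12.08 in 2508, 12.00 in M6C, 11.98 in M6, 11.19 in Myc83 and 10.12 in 2855. The part of basal cell identity in Robo2 was not tested.

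**Figure D2:**
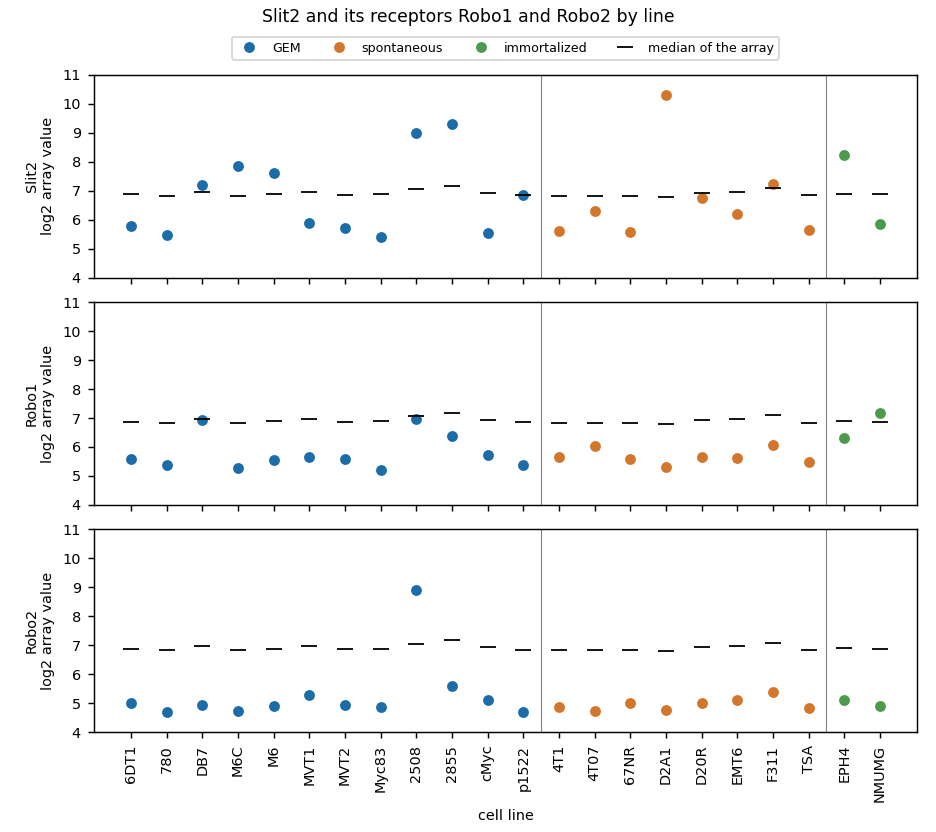
Log2 values of Slit2, Robo1 and Robo2 (panels, top to bottom) in each line, coloured by origin, with black bars at the median of that line's array. D2A1 has the highest Slit2 at 10.31, and Robo2 stands above the array median only in 2508, at 8.90.

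The start-site sequences of the 4 genes that differed most between Cdh1-high and Cdh1-low lines, as described further on, are shown. The genes were picked by that difference in level alone, and the part of these sequences in it was not tested. Each sequence is the 250 bases before the annotated start, from RefSeq on build GRCm38.p6, plus strand, 5′ to 3′. The windows were searched for CANNTG, the E-box that basic helix-loop-helix and zinc finger factors bind and which reads the same on both strands. They were also searched on both strands for CACCTG, a subset of it that Snail and Zeb repressors of Cdh1 are known to bind. Capitals mark CANNTG.
Slit2, chr5:47982905-47983154: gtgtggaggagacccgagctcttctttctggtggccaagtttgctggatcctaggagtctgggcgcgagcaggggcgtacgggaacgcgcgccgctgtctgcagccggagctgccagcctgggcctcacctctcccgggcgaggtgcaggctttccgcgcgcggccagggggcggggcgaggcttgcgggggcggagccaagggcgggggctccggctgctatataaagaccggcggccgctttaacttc
Sema3c, chr5:17574566-17574815: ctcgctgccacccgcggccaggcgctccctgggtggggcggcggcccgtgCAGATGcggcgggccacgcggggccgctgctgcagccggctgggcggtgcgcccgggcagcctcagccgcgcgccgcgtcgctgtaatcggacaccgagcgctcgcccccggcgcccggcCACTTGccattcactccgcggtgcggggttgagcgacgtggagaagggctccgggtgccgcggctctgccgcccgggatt
Plxnb1, chr9:109095186-109095435: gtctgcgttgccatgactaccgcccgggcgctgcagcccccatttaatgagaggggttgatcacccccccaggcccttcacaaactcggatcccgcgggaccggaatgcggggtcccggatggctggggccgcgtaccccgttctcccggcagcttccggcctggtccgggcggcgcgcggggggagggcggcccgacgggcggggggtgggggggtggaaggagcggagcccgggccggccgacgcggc
Plxna2, chr1:194619579-194619828: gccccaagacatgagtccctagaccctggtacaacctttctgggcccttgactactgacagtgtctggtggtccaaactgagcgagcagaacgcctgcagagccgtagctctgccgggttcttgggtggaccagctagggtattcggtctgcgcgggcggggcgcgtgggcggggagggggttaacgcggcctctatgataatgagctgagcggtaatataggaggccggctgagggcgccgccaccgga

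Sema3c held 2 matches to CANNTG, and the windows of Slit2, Plxnb1 and Plxna2 held 0. None of the 4 windows held CACCTG. Of the 62 windows matched to 48 of the guidance genes, 46.8% held CANNTG, against 66.2% of all 32851 windows of this length. CACCTG was in 12.9% of the guidance gene windows, against 17.2% of all windows. A match is a string of letters and not a site, and a window without one says nothing about a factor.

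Eph receptors and ephrins ranged from steady to confined to few lines. Epha2, an Eph receptor often abundant in carcinoma, had log2 values of 9.37, 10.31 and 10.83 in GEM lines (lowest, median, highest), 9.68, 10.64 and 10.99 in spontaneous lines, and 10.44 in EPH4 and 11.03 in NMUMG. The origins overlapped and no line fell below its array median. Epha7 was 4.54, 4.96 and 8.04 in GEM lines, 4.59, 4.66 and 6.10 in spontaneous lines, and 5.70 in EPH4 and 9.12 in NMUMG. NMUMG, DB7 at 8.04 and M6 at 7.69 were the high lines, and 15 lines lay at 5.27 or less. Epha4 was 9.99 in NMUMG, followed by 8.21 in 780, 7.97 in 4T1 and 7.71 in MVT2.

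Among ephrin ligands, Efnb2, which also marks arterial endothelium, was 7.87, 8.48 and 9.36 in GEM lines (lowest, median, highest), 5.85, 9.22 and 9.57 in spontaneous lines, and 8.47 in EPH4 and 9.65 in NMUMG. The low value of 5.85 was that of 67NR, the only line below its array median, and the next lowest was EMT6 at 7.59. Efna5 was above the array median throughout, and its lowest value was again in 67NR, at 7.62.

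Several guidance genes varied strongly among lines. An SD of at least 1 log2 unit over the 22 lines was met by 9 of the 57 genes, or 15.8%, against 4.31% of all genes. They included 5 semaphorins, namely Sema3c (SD 1.88), Sema3a (1.51), Sema5a (1.43), Sema7a (1.11) and Sema3e (1.04), beside Slit2 (1.41), Epha7 (1.27), Plxna2 (1.17) and Epha4 (1.11). Without the arrays of 2855, 2508 and F311, an alternative chosen after seeing the data, the count was again 9. The lines that were high differed from gene to gene, as the plot of the most variable members shows.

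Sema3c, a secreted ligand that acts through neuropilins and plexins, had log2 values of 5.22, 7.71 and 10.78 in GEM lines (lowest, median, highest), 4.76, 6.08 and 9.70 in spontaneous lines, and 9.42 in EPH4 and 10.34 in NMUMG. Lines 2508, NMUMG, F311 and 2855 were highest, and D2A1, TSA and MVT2 were lowest. Sema3a, the prototype repellent of the class, reached 9.25 in 780, 9.20 in 2855 and 8.29 in M6C among GEM lines, whose median was 6.39. In spontaneous lines Sema3a was 10.87 in EMT6 and 5.37 to 7.09 in the others, and it was 7.21 in EPH4 and 5.31 in NMUMG. Sema3a was thus high in a few GEM lines and in a single spontaneous line, EMT6.

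Sema5a, a transmembrane semaphorin, was 11.07 in 67NR, 10.63 in M6C and 10.02 in M6, and lowest in NMUMG at 5.99. Sema7a, the membrane-anchored semaphorin that also binds integrins, was 9.50 in 67NR, 9.19 in 4T07 and 7.59 in 4T1, against 7.37 or less in each of the other 19 lines. The lines highest in Sema7a thus shared a tumour. Sema3b was 9.15 in 4T07 and between 6.68 and 7.61 in the other lines.

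**Figure D3:**
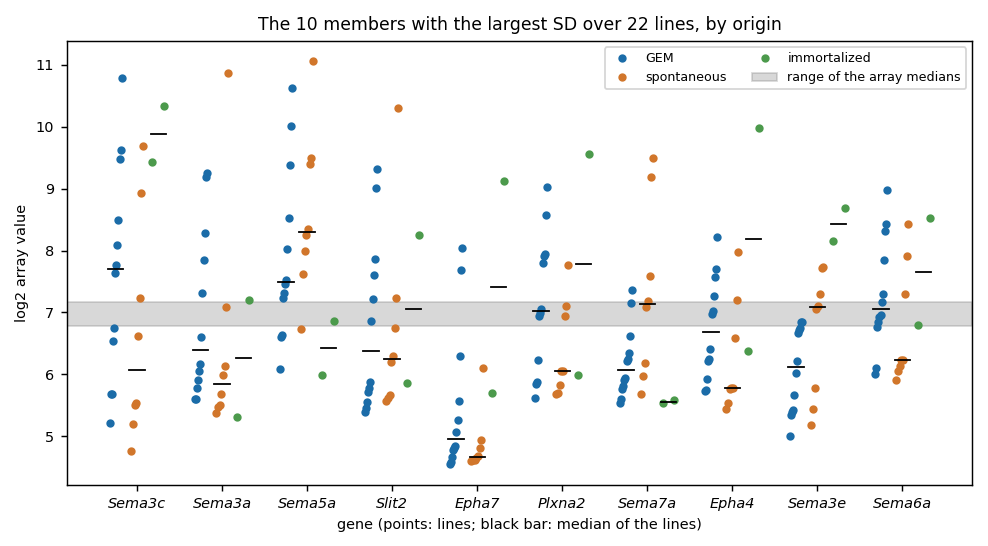
Log2 values of the 10 genes of largest SD over the 22 lines, with lines as points by origin and black bars at the median of each origin. The single highest points are those of 67NR for Sema5a at 11.07 and of EMT6 for Sema3a at 10.87, and the grey band marks the array medians, 6.78 to 7.17.

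Plexins are the main semaphorin receptors. Plxnb2 was 9.44, 10.80 and 10.93 in GEM lines (lowest, median, highest), 9.99, 10.63 and 11.22 in spontaneous lines, and 10.55 in EPH4 and 11.61 in NMUMG. Plxna2, a receptor for class 6 semaphorins and with neuropilins for class 3, had an SD of 1.17, with 5.61, 7.03 and 9.02 in GEM lines, 5.68, 6.05 and 7.76 in spontaneous lines, and 6.00 in EPH4 and 9.56 in NMUMG. NMUMG, 2508, MVT2, 6DT1 and MVT1 were the high lines.

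Of the netrins and their receptors, Ntn1 was highest in 2855 at 9.26 and next in DB7 at 8.20. Unc5b, a netrin receptor known from vessel sprouts, was 8.69 to 9.98 in GEM lines, 8.20 to 9.77 in spontaneous lines, and 8.80 in EPH4 and 10.09 in NMUMG. Unc5c was 8.12 in D20R and 7.41 in 2855, and at most 7.12 elsewhere.

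In 7 genes, 12.3% against 3.43% of all genes, the highest line stood at least 1 log2 unit above the next, a measure chosen after seeing the data. They were Robo2 and Efnb1 in 2508, Epha4 and Epha7 in NMUMG, Sema3a in EMT6, Sema3b in 4T07 and Ntn1 in 2855. Efnb1, an ephrin named here after its values were seen, was 10.18 in 2508 and 8.84 in 2855, the next line.

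Origin was tested with limma over lineages, with Benjamini-Hochberg adjustment at 0.05 over all 16755 transcript clusters. In the comparison of GEM with spontaneous tumours 0 of the 57 genes passed, where 0.113% of all clusters did. Without adjustment 3 genes were below 0.05, all lower in GEM, where 7.72% of all clusters were. The median difference of GEM minus spontaneous over the guidance genes was -0.04 log2 units, and it was -0.04 over all clusters. That no gene passed does not show the origins to be alike.

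The 4 smallest p-values of that comparison belonged to 3 semaphorins and a plexin. Sema3b averaged 7.03 ± 0.21 in GEM lineages and 7.43 ± 0.31 in spontaneous lineages (SD, n = 10 and 5), a difference of -0.40 with SE 0.14 and adjusted p = 0.437. Sema3e averaged 5.97 ± 0.68 in GEM and 6.74 ± 0.80 in spontaneous lineages (adjusted p = 0.627). Sema7a averaged 6.19 ± 0.57 in GEM and 7.004 ± 1.14 in spontaneous lineages (adjusted p = 0.640), and its difference of -0.82 became -0.38 without the 4T lineage. Plxna3, a plexin of class A, averaged 6.97 ± 0.34 in GEM and 7.34 ± 0.35 in spontaneous lineages (adjusted p = 0.663). None of these differences passed the test.

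In the comparison of tumour with immortalized lineages, again 0 of 57 genes passed, against 0.298% of all clusters. Without adjustment 6 were below 0.05, all lower in tumours, where 11.9% of all clusters were. The closest was Sema3e, a ligand of Plxnd1. Its log2 values were 5.003, 6.12 and 6.85 in GEM lines (lowest, median, highest), 5.19, 7.08 and 7.73 in spontaneous lines, and 8.15 in EPH4 and 8.69 in NMUMG. Both immortalized lines lay above each of the 20 tumour lines. The difference of tumour minus immortalized was -2.07 with SE 0.49 and an adjusted p of 0.0799, which became 0.0459 without TSA and ran up to 0.226 over the lineages left out in turn.

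Epha7, Robo1 and Plxna4 followed, with differences of tumour minus immortalized of -2.31 (SE 0.79, adjusted p = 0.234), -1.04 (SE 0.36, adjusted p = 0.240) and -0.47 (SE 0.19, adjusted p = 0.336). The Epha7 difference was -4.02 with EPH4 left out and -0.60 with NMUMG left out. That of Robo1 was -1.46 without EPH4 and -0.61 without NMUMG, and that of Plxna4 was -0.71 without EPH4 and -0.23 without NMUMG. NMUMG thus set much of their size. With NMUMG as the lone immortalized line, assumed to vary like the others, Epha4 (-3.46, adjusted p = 0.0341) and Sema4f (-1.82, adjusted p = 0.0366) passed, the second named after its values were seen. In that fit 139 of 16755 clusters passed, against 50 with both immortalized lines.

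Of 58 other genes of guidance signalling, 50 were measured and 0 passed in either comparison by limma. In GEM minus spontaneous, 5 of the 50 were below 0.05 without adjustment, 4 higher and 1 lower, where 7.72% of all clusters were. Cfl1, the actin-severing cofilin, differed by -1.52 (adjusted p = 0.193), the kinase Rock1 by 0.80 (adjusted p = 0.455) and the adaptor Nck2 by 0.76 (adjusted p = 0.159). The Cfl1 entry averaged 5.46 in GEM, 6.98 in spontaneous and 7.44 in immortalized lineages. Its GEM mean lay under the array medians, 6.78 to 7.17, where values may sit at the floor. In tumour minus immortalized, 7 of the 50 were below 0.05 without adjustment, 3 higher and 4 lower, where 11.9% of all clusters were. The largest difference over the 50 genes was that of Flrt2, a ligand of Unc5 receptors and not among the 7, at -1.80 (adjusted p = 0.482), followed by Cfl1 at -1.22 (adjusted p = 0.410) and Rock1 at -1.15 (adjusted p = 0.251).

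Cdh1, the E-cadherin of epithelial junctions, divided the lines by a gap of 3.19 log2 units. The 10 Cdh1-high lines, at 10.49 to 11.82, were DB7, F311, EPH4, 2855, Myc83, 4T1, 4T07, NMUMG, M6C and M6, and the 12 Cdh1-low lines lay at 6.28 to 7.30. The division is read from these arrays and is no label, so no test was made on it. It cuts through 2 lineages, with 2855 high against 2508 low, and 4T1 and 4T07 high against 67NR low.

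No guidance gene separated the sides without overlap, as 0.0808% of all genes did. The medians differed by at least 1 log2 unit in 8 of 57 genes, or 14.04%, against 2.25% of all genes. Higher in Cdh1-high lines were 6 genes (1.41% of all genes), namely Sema3c, Slit2, Plxnb1, Sema3e, Sema6a and Epha1. Lower were 2 genes (0.841% of all genes), Plxna2 and Sema6d, of which the second, like Epha1, is named after its values were seen.

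Sema3c was 5.51, 8.96 and 10.34 in Cdh1-high lines (lowest, median, highest) and 4.76, 6.12 and 10.78 in Cdh1-low lines, a median difference of 2.84. Both immortalized lines are Cdh1-high, at 9.42 in EPH4 and 10.34 in NMUMG. Within tumour lines alone, an alternative chosen after seeing the data, the Sema3c median difference was 2.02. The Cdh1-low line 2508 held the highest Sema3c of all lines and the Cdh1-high line 4T1 one of the lowest, so the overlap was wide. Slit2 was 5.39, 7.23 and 9.32 in Cdh1-high lines and 5.46, 5.82 and 10.31 in Cdh1-low lines, with D2A1, a Cdh1-low line, at the top. Its median difference of 1.40 was 0.98 without the arrays of 2855, 2508 and F311, an alternative chosen after seeing the data.

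Plxnb1, a receptor of Sema4d, was 7.07, 8.18 and 8.78 in Cdh1-high lines (lowest, median, highest) and 6.33, 6.79 and 8.27 in Cdh1-low lines. The highest Cdh1-low line in Plxnb1 was D20R, and 4 Cdh1-high lines exceeded it. Epha1, an Eph receptor of epithelia, was 5.43, 6.71 and 8.05 in Cdh1-high lines and 5.25, 5.70 and 6.17 in Cdh1-low lines. In 9 of the 10 Cdh1-high lines, all but NMUMG, Epha1 exceeded every Cdh1-low line, but 4T07 at 6.22 and the Cdh1-low EMT6 at 6.17 cannot be ordered. Only 4 Cdh1-high lines exceeded the array median in Epha1.

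Plxna2 ran the other way, with 5.61, 6.02 and 9.56 in Cdh1-high lines (lowest, median, highest) and 5.68, 7.43 and 9.02 in Cdh1-low lines, and NMUMG as its highest line. Sema6d was 5.66, 6.16 and 8.55 in Cdh1-high lines and 5.69, 7.26 and 7.91 in Cdh1-low lines, and 4T07 was its highest line. Sema6d and Plxna2, though lower in the median of Cdh1-high lines, thus had their single highest values in that set.

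**Figure D4:**
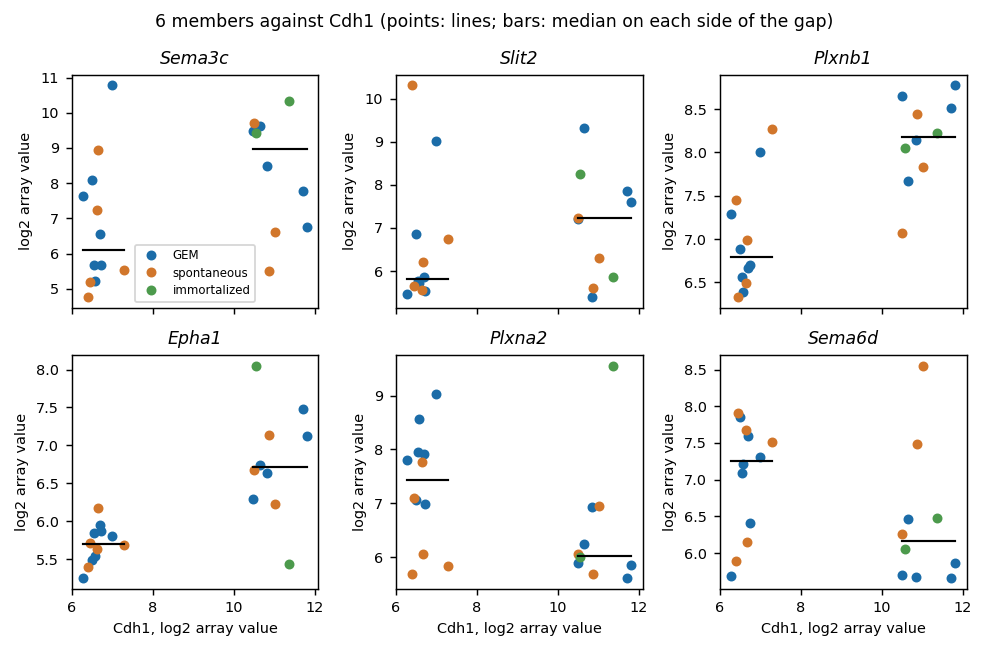
Log2 values of 6 guidance genes (vertical axes) against Cdh1 (horizontal axis) with lines as points by origin and bars at the medians of the 10 Cdh1-high and 12 Cdh1-low lines. The bars stand 2.84 apart for Sema3c and 1.01 apart for Epha1, and in each panel the sets overlap.

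Lines of a shared lineage differed in many guidance genes. Each difference rests on 1 array per line, so it has no replicate check and no test. Between 4T07 and 67NR 14 genes were at least 1 log2 unit apart (24.6%, against 10.5% of all genes), and between 4T1 and 67NR 17 genes (29.8%, against 13.1%). Between 4T1 and 4T07 there were 8 (14.04%, against 3.3%), between D2A1 and D20R 7 (12.3%, against 4.35%), between M6C and M6 4 (7.02%, against 1.55%), and between 2508 and 2855 11 (19.3%, against 5.26%). The share of guidance genes exceeded that of all genes in each of the 6 pairs, and the 3 pairs of the 4T lineage share arrays. At 2 log2 units the count was 5 for 4T07 and 67NR (2.35% of all genes), 5 for 4T1 and 67NR (3.28%) and 2 for 4T1 and 4T07 (0.653%). It was 3 for D2A1 and D20R (0.989%), 0 for M6C and M6 (0.101%) and 3 for 2508 and 2855 (1.1%).

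In the 4T lineage, some differences from 67NR were found in both 4T07 and 4T1 and others in 1 of them. Efnb2 was 9.47 in 4T07 and 9.38 in 4T1, against 5.85 in 67NR. Sema5a was 8.25 in 4T07 and 7.61 in 4T1, against 11.07 in 67NR. Sema3f, a class 3 semaphorin, was 10.02 in 4T07 and 9.62 in 4T1, against 7.64 in 67NR. Efna5, Sema3e, Sema4d, Plxnb1 and Sema6a also lay at least 1 log2 unit higher in both. Sema3a, Sema6b and Epha7 lay at least 1 lower in both. For Epha7 even the higher value, 6.10 in 67NR, was under the median of its array, 6.83. Among ligands, Sema3b (2.18) and Efna4 (8.48 in 4T07, 7.26 in 67NR) were at least 1 unit higher in 4T07 alone, and Sema7a (-1.92) and Sema3c (-1.72) at least 1 lower in 4T1 alone. The comparisons share the 67NR array, and 67NR is the Cdh1-low line of the lineage.

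4T1 and 4T07 differed most in Epha4 and Sema3b. Epha4 was 7.97 in 4T1, against 5.54 in 4T07 and 5.77 in 67NR. Sema3b was 7.09 in 4T1, against 9.15 in 4T07 and 6.96 in 67NR. Each was therefore high in a single line of the lineage. Plxna2 was 5.69 in 4T1, against 6.94 in 4T07 and 7.76 in 67NR.

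The difference of Slit2 between the D2 lines was among the largest. It was 10.31 in D2A1, against 6.75 in D20R, a difference of 3.56 log2 units. In D2A1 the netrin receptor Unc5c was 5.57, against 8.12 in D20R, and Sema6a was 5.90, against 7.91. Sema3e (5.19 in D2A1, 7.06 in D20R), Sema6d and Ntn1 were also at least 1 lower in D2A1, and Sema5a, at 9.50 against 7.99, was higher. Both lines are Cdh1-low, so the Slit2 difference stood within that set. Robo1 was 5.30 in D2A1 and Robo2 4.75, both under the array median.

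M6C and M6 differed least. The 4 genes at least 1 apart were Epha7 (6.30 in M6C, 7.69 in M6), Epha4 (5.75 in M6C, 6.98 in M6), Sema6a (8.32 in M6C, 7.17 in M6) and Sema3c (7.77 in M6C, 6.75 in M6). Sema6a and Sema3c were higher in M6C and the Eph receptors lower.

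The Wnt lines differed in both directions. Robo2 was 8.90 in 2508, against 5.58 in 2855, and Plxna2 was 9.02 in 2508, against 6.24 in 2855. Sema3a was 6.05 in 2508, against 9.20 in 2855, and Ntn1 was 7.48 in 2508, against 9.26 in 2855. Sema4b, a transmembrane class 4 semaphorin, was 9.97 in 2508, against 8.32 in 2855. Slit2 was 9.01 in 2508 and 9.32 in 2855, high in both. Cdh1 was 6.996 in 2508 and 10.65 in 2855, and what part epithelial state had in these differences was not tested. Under quantile normalization, the Robo2, Plxna2 and Sema3a differences were 3.93, 3.40 and -3.70.

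**Figure D5:**
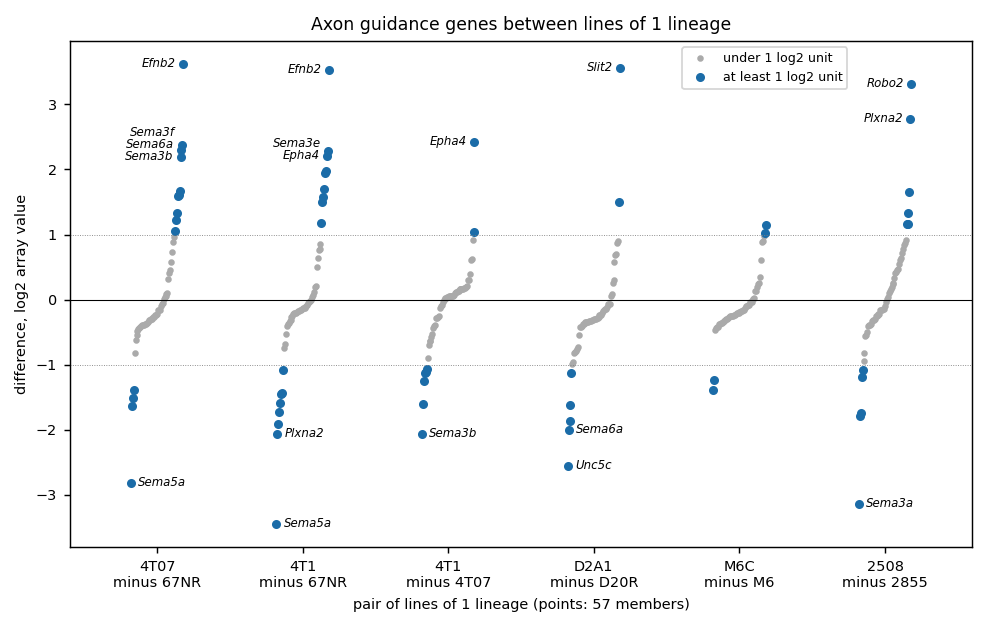
Difference in log2 value of each of the 57 genes between lines of a shared lineage, first-named line minus second, with blue points at least 1 log2 unit from 0. Slit2 stands at 3.56 in D2A1 minus D20R, and no gene passes 2 units in M6C minus M6.

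Over the 57 genes, each centred on its mean over lines, Pearson correlations between lines of a shared lineage ran from -0.13 to 0.80. These correlations are across genes, which are not independent replicates, and serve as a description. M6C with M6 had 0.80, 4T1 with 4T07 0.51, D2A1 with D20R 0.31, 4T07 with 67NR 0.15, 2508 with 2855 0.14 and 4T1 with 67NR -0.13. The 225 pairs of different lineages ran from -0.68 to 0.90 with a median of -0.06. Over all genes 4T1 with 67NR had -0.17 and 2508 with 2855 had 0.51. The arrays of 2508, 2855 and F311 had the smallest SD. Over all genes F311, of another lineage, had 0.41 with 2855 and 0.19 with 2508. The part of the small SD in these values was not tested.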

How the data were processed

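RNA of 22 cultured lines was measured on mouse exon arrays, 1 array per line. The authors deposited 1 value per entry and array, taken here as log2 values from their range, 2.74 to 13.91, since the scale is not stated. The submitters' processing notes name GCOS and build mm9. No source used here gives the background correction, probe summarization or normalization. No array pair correlated above 0.987.

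Of 23332 entries, the 16755 transcript clusters were tested and 6577 others left out. Of the clusters, 14996 had 1 gene symbol, 1019 several and 740 none. A gene took the cluster of highest mean, which left 14860 genes, and all 57 members matched RefSeq (GRCm38.p6). Krt7, Nrp2 and the other list genes without a value were not analysed here.

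The 22 lines were averaged into 17 lineages (10 GEM, 5 spontaneous, 2 immortalized), so p-values measure the spread between lineages, and the number of arrays limits the precision. limma 3.58.1 (R 4.3.3; lmFit, eBayes, Benjamini-Hochberg at 0.05) was fitted to all 3 origins, after a run of the same code on simulated data with known changes. Per the labels, insulin and EGF were added for the Wnt pair alone among the GEM models, so medium and model cannot be told apart there.

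Genes named were those past the threshold or else the 4 of smallest p per comparison, the 10 of largest SD, the 4 largest differences per pair above the array median, the 4 of largest Cdh1 median difference, Slit2 with Robo1, Robo2 and Robo4, and the highest member of each family. Members outside this rule were also named, among them Efna4, Sema4d, Sema6b and Sema6c. Members and lists were chosen with earlier results of these data known. Alternatives were median centring, quantile normalization, every entry, the lowest values left out, lines as replicates or blocked by lineage, each lineage left out, and a size of 2 log2 units. Leaving out the 3 arrays of smallest SD, and the Cdh1 division within tumour lines, were chosen after seeing the data. Python 3.11.15 (pandas 2.3.3, numpy 2.4.6, matplotlib 3.10.9) served for the rest.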

Additional observations from a re-analysis of the deposited data

Results flagged for a closer look

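Among 52 groups of lineage values tested for a single stray value, 4 held a lineage far from the others. Chance gives about 1 in 20 groups of genes taken without regard to their values, but the genes tested were named in part for large differences between lines, so the count is a description. In GEM lineages Plxnb2 was 9.44 in 780, against 10.73 to 10.93 in the others. Unc5b was 8.69 in the same lineage, against 9.17 to 9.59. Robo2 was 7.24 in the lineage of 2508 and 2855, against 4.69 to 5.29. In spontaneous lineages Sema3a was 10.87 in EMT6, against 5.68 to 6.02.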

How the results depend on the processing

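With 1 array per line, no pair difference has a replicate error, the immortalized side is 2 lines, and values under the array median may sit at the array's floor, which compresses differences. None of the single-gene values checked reversed under an alternative run, while counts were compared by size and cannot reverse. The median difference over all clusters did change sign in both comparisons. In GEM minus spontaneous it was -0.04, against 0.008 with lines as independent replicates and 0.01 without F311. In tumour minus immortalized it was 0.032, against -0.013 with every table entry and -0.013 without NMUMG. The count of guidance genes past the threshold stayed 0 in GEM minus spontaneous. In tumour minus immortalized it was 1 (Sema3e, adjusted p = 0.0399) with every table entry and 0 to 2 over the lineages left out in turn. Clusters past the threshold in GEM minus spontaneous, 19 in all, were 12 with lineage as a random block, 91 with lines as independent replicates and 9 to 32 with a lineage left out. In tumour minus immortalized, 50 became 120 under quantile normalization, 412 with every entry, 2 with the lowest values left out, 103 with lines as replicates and 28 to 413 with a lineage left out. That comparison's split of higher and lower clusters was 19 and 31, against 15 and 43 after median centring and 59 and 61 after quantile normalization. In GEM minus spontaneous it was 9 and 10, against 8 and 6 after median centring. At 2 log2 units the pairs held 5 genes (4T07 and 67NR), 5 (4T1 and 67NR), 2 (4T1 and 4T07), 3 (D2A1 and D20R), 0 (M6C and M6) and 3 (2508 and 2855). Why the counts moved was not tested, apart from the stricter size. Of 151 alternative values for counts, 125 kept their size or call. For single genes 300 of 305 counted as kept, which in the limma comparisons meant the same sign and the same side of the threshold. That rating does not show a steady size, as Epha7 in tumour minus immortalized ran from -4.02 to -0.60. No paired analysis was possible because no lineage has lines in more than 1 origin.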

Other observations

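Among lines with a Myc transgene, the likeness of the guidance genes varied. Over the 57 gene-centred values, 6DT1 correlated with MVT1 at 0.90, with MVT2 at 0.73 and with cMyc at 0.57, and MVT1 with MVT2 at 0.71. Myc83, the Cdh1-high line among them, correlated with 6DT1 at -0.07, with MVT1 at -0.12, with MVT2 at -0.34 and with cMyc at 0.08. Over all genes the value was 0.68 for 6DT1 with MVT1, 0.51 for 6DT1 with MVT2, 0.41 for 6DT1 with cMyc and 0.48 for MVT1 with MVT2, so the high pairs were high there too. These values are across genes of single arrays and carry no test. Epha2 had a further table entry, which averaged 6.33 and ran from 5.81 to 7.02 over the lines and was not used.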
